A study of Mus musculus with 21 samples.

Results

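Immediate early genes are genes that a stimulated neuron transcribes within minutes from factors it already holds, with no new protein needed. The 5 examined here were Arc, Nr4a1, Egr1, Junb and Homer1, chosen by name, with earlier results of these data known. They were looked up by symbol among the 5544 genes of the table. All 5 were found, as 1 Ensembl gene each. The samples were cortex from male C57BL/6 mice (C57Bl/6J in the study's methods) aged 12 weeks, 24 h after the last procedure. High-frequency head impact (HF-HI) mice received 5 impacts per day to the closed head under isoflurane for 6 days, 30 in all. Sham mice received the same handling and anesthesia without impacts, so that exposure is shared by all libraries. There were 10 sham and 11 HF-HI libraries of whole cortex, which mixes neurons with every other cortical cell type.

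Members of this class differ in what they do. Egr1 (a zinc finger protein), Junb (a subunit of the AP-1 dimer) and Nr4a1 (an orphan nuclear receptor) are transcription factors that act on later genes. Arc and Homer1 act at the synapse. Arc binds the endocytic machinery and promotes removal of AMPA receptors, and Homer1 links metabotropic glutamate receptors to scaffolds of the postsynaptic density. Homer1 makes long scaffold forms at rest and a short form, Homer1a, that is induced by activity and competes with them. Calcium entry and the ERK cascade reach these genes mainly through CREB, which binds the cAMP response element, and through serum response factor. The induced transcripts are short-lived, so a measurement long after a stimulus reports the transcript pool at that hour.

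The start-site windows of the members are shown because these genes share inputs through such elements. The RefSeq table for GRCm38.p6 held 3 of the 5 members, Nr4a1, Homer1 and Junb, as 300 bases from 250 before to 50 after the start of transcription. Arc and Egr1 were not in it. The core of the cAMP response element, TGACG on either strand (CGTCA when read from the other), is in capitals. A whole element, TGACGTCA, counts as 2 overlapping cores.
Nr4a1: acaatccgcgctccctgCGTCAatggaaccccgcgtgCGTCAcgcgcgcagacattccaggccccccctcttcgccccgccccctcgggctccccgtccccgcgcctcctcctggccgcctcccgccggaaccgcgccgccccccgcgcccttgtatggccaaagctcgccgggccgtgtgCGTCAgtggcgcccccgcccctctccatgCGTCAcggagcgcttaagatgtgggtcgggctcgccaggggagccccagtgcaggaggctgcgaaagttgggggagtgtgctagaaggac
Homer1: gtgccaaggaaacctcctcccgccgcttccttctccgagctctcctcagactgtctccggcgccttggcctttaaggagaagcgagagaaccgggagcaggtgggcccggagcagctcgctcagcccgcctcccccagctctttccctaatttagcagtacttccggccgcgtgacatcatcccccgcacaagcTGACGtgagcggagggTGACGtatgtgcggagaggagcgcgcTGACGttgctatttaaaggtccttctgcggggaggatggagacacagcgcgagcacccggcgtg
Junb: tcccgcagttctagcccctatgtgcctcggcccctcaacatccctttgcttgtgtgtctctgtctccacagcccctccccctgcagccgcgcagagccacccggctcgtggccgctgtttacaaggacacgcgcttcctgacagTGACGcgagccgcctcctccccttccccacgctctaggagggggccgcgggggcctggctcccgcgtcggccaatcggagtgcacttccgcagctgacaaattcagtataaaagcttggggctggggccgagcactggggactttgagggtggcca
The Nr4a1 window lies at chr15:101266596-101266895 on the plus strand and holds 4 cores, which begin 233, 213, 69 and 40 bases before the start site. The Homer1 window lies at chr13:93303507-93303806 on the plus strand and holds 3, at 56, 40 and 14 bases before. A downstream Homer1 start, at chr13:93307784-93308083, holds 0 cores in its own window. Junb, at chr8:84978699-84978998 on the minus strand, holds 1, at 106 bases before. Among all 32851 windows of this length, 20.8% held at least 1 core, 1.03% at least 3 and 0.231% at least 4. By gene, over the 4329 genes of the table with a window, 3.07% held at least 3 and 0.762% at least 4. None of the 3 members held the whole element, which 1.79% of all windows did, or the CArG box of the serum response element, which 1.63% did. Of the 28 immediate early genes measured (the members and 23 others), 22 had a window, and 15 of these, 68.2%, held at least 1 core in a window, against 39.7% of those 4329 genes. These are matches of letters, not shown to be bound.

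Values are on the log2 scale that variance stabilization gives, so a difference of 1 is a doubling, except that differences of low genes are understated. HF-HI cortex had more Arc, Nr4a1, Egr1 and Junb transcript than sham cortex, and Homer1 did not pass the test. The 4 increases were between 1.96-fold and 3.04-fold. Of all 5544 genes, 32.6% were higher and 33.6% lower by the same test (limma, two-sided, with a trend of variance on mean, p adjusted by Benjamini-Hochberg, under 0.05), 1810 and 1864 genes. With every library centred on its own median, that split was 1448 higher and 2376 lower. Being called was therefore common, and what set the 4 genes apart was the size of the difference: Arc ranked 4, Nr4a1 8, Egr1 20 and Junb 42 of 5544 by increase. The members were chosen with earlier results of these data known, so these ranks are a description. They hold for the values as deposited, and ranks with the trend on GC content removed are not given. How genes were selected for the table is not given in the sources used here. Nr4a1 and Junb had low sham means, 7.92 and 7.93, and lay in the lowest quartile of mean values. They may have entered the table through their HF-HI values, and such entry would favour their ranks.

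**Figure D1:**
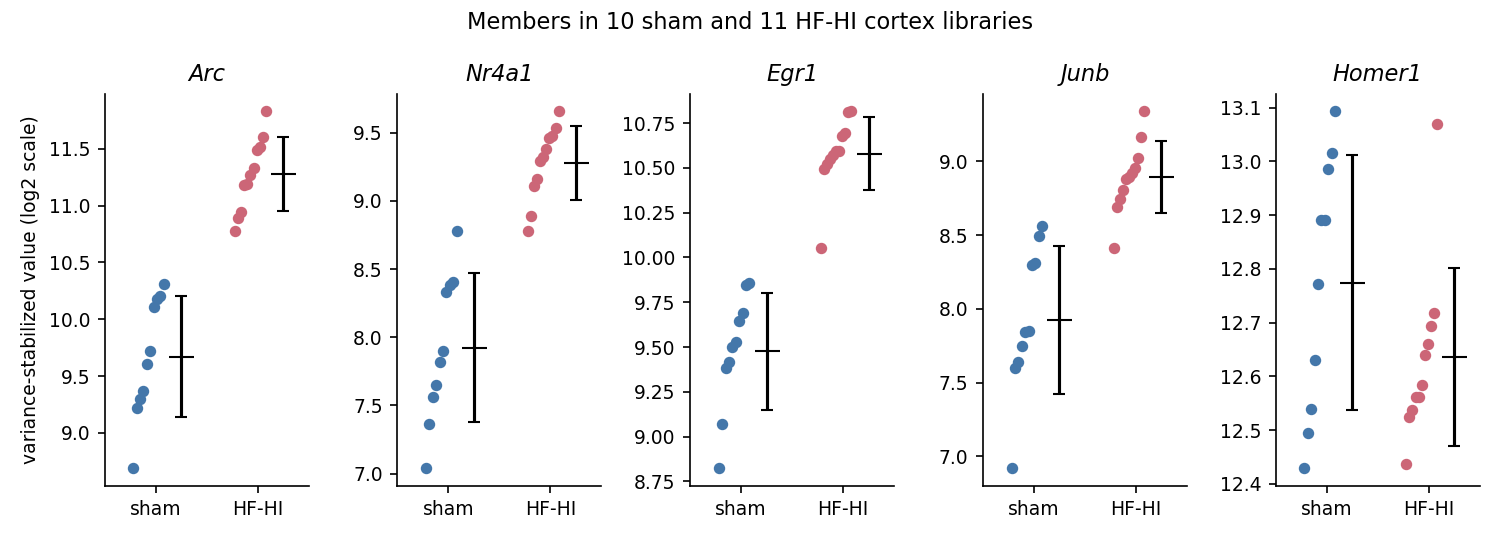
Variance-stabilized value (log2 scale, vertical axis, its own range in each panel) of the 5 members in each library of sham and HF-HI cortex, 1 point per library ordered by value, with the mean and SD as black bars. All 11 HF-HI points lie above all 10 sham points for Arc and Egr1, Nr4a1 and Junb overlap slightly, and the Homer1 groups share most of their range.

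Arc (chr15:74669083-74672570, minus strand, GRCm38) showed the largest difference of the 5. Its sham values ran from 8.69 through a median of 9.66 to 10.3, and its HF-HI values from 10.8 through 11.3 to 11.8. Every HF-HI library was above every sham library, the lowest HF-HI library lying 0.46 above the highest sham library. The HF-HI mean of 11.28 ± 0.33 (SD, n = 11) against 9.67 ± 0.53 (SD, n = 10) gave a log2 difference of 1.60 (SE 0.172), 3.04-fold, with limma adjusted p = 5.46e-08.

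Egr1 (chr18:34859823-34864984, plus strand) also separated the groups. Sham libraries lay between 8.83 and 9.86 with a median of 9.51, and HF-HI libraries between 10.1 and 10.8 with a median of 10.6. The log2 difference was 1.10 (SE 0.108), 2.15-fold, and the limma adjusted p was 1.41e-08, smaller than that of Arc since Egr1 varied less between mice. Separation of this kind, HF-HI above sham with no overlap, was found for 2 of the 5 members and for 8.71% of all genes.

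Nr4a1 (chr15:101254269-101274795, plus strand) ran from 7.04 through 7.86 to 8.78 in sham and from 8.78 through 9.32 to 9.66 in HF-HI. The groups touched at a single pair of mice, sham 8, the highest of its group, and HF-HI 9, the lowest of its group. The difference was 1.35 (SE 0.168), 2.56-fold, with limma adjusted p = 3.90e-07. Junb (chr8:84974484-84978718, minus strand) ran from 6.92 through 7.85 to 8.56 in sham and from 8.42 through 8.89 to 9.34 in HF-HI. Here sham 5 and sham 2 lay above HF-HI 2, and the other libraries kept to their own side. The Junb difference was 0.97 (SE 0.154), 1.96-fold, limma adjusted p = 1.001e-05. The 3′ end of Junb overlaps 351 bases of Prdx2 on the opposite strand in the annotation, and whether reads were counted by strand is not given in the sources used here.

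Homer1 (chr13:93299635-93405129, plus strand) was the member that did not pass. Sham values ran from 12.4 through 12.8 to 13.1 and HF-HI values from 12.4 through 12.6 to 13.1, so that both groups covered nearly the same range. The difference of -0.14 (95% confidence interval -0.31 to 0.03, limma adjusted p = 0.135) missed the threshold. The interval excludes an increase of the size seen in the other 4 genes. HF-HI 10, at 13.07, stood above the next HF-HI library, at 12.72, and without it the difference was -0.18 with limma adjusted p = 0.0344. The table holds 1 value for the whole gene, which the annotation divides into 12 transcripts, 11 of them coding, so Homer1a cannot be told apart from the long forms.

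Per kilobase of exon, Homer1 was the most abundant of the 5 in sham, with a log2 level per kilobase of 9.19 ± 0.24 (SD, n = 10). Arc followed at 8.06 ± 0.53, Egr1 at 7.31 ± 0.33, Junb at 6.72 ± 0.50 and Nr4a1 at 6.11 ± 0.54. In HF-HI the order began with Arc, at 9.66 ± 0.33 (SD, n = 11), above Homer1 at 9.05 ± 0.17, and went on through Egr1 at 8.42 ± 0.21 and Junb at 7.69 ± 0.24 to Nr4a1 at 7.47 ± 0.27. Neighbouring levels of Arc, Egr1, Junb and Nr4a1 in sham, and of Junb and Nr4a1 in HF-HI, lay within the sum of their SDs. These levels depend on the exon length assigned to each gene, 11.976 kb for Homer1 and between 2.301 and 4.484 kb for the others.

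GC content moved with the groups across the whole table and was therefore examined beside the members. The slope of a library's deviations on exonic GC content ran from -0.231 to 0.006 log2 units per 10 percentage points in sham and from -0.039 to 0.161 in HF-HI. Arc, Nr4a1, Egr1 and Junb are GC-rich, at 59.0%, 55.6%, 57.3% and 62.6% of exonic bases against a median of 47.6% over all genes, whereas Homer1 has 39.4%. With each library's GC trend removed, the differences were 1.34 for Arc, 1.18 for Nr4a1, 0.89 for Egr1 and 0.61 for Junb, all 4 still past the threshold (limma adjusted p between 1.67e-07 and 6.96e-04), where 29.2% of genes were higher. The Homer1 difference became -0.01. Relative depth was higher in HF-HI, with a median of 1.17 against 0.864 in sham. Its ranges overlapped, at 0.580 to 1.26 in sham and 0.548 to 1.63 in HF-HI. With depth as a covariate the differences of the 4 genes were 1.45, 1.21, 1.10 and 0.98 in the same order. How much of each difference the GC trend accounts for was not tested.

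Cell type markers were set beside the members in the same way. Of 4 excitatory neuron markers, 3 were higher in HF-HI, beside 32.6% of all genes, among them Tbr1, a transcription factor of deep-layer neurons, by 1.02 and Slc17a7, the vesicular glutamate transporter, by 0.89. Their summed level ran from 14.09 to 14.47 in sham and from 14.66 to 15.00 in HF-HI, without overlap. Of 5 inhibitory neuron markers measured, 2 were higher and 0 lower, beside 32.6% and 33.6% of all genes. The summed levels of the inhibitory neuron, astrocyte, oligodendrocyte, microglia, endothelial, striatum and choroid plexus markers overlapped between the groups. In whole cortex, fewer or more cells of a type and less or more RNA per cell cannot be told apart. The part of the neuronal markers in the members' differences was not tested.

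The other immediate early genes were called in both directions. Of 84 further genes listed for the class, 23 were among those measured. Fos, Fosb and Npas4 were not analysed here. Of the 23, 9 were higher (39.1%, beside 32.6% of all genes), 5 lower (21.7%, beside 33.6%) and 9 did not pass, with a median difference of 0.03 against -0.01 over all genes. With the GC trend removed, 9 were higher and 2 lower, where 29.2% and 31% of all genes were. The list was written with results of these data known, so its counts are a description.

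Among 7 transcriptional regulators, 5 were higher (71.4%, beside 32.6% of all genes) and 1 lower (14.3%, beside 33.6%). Bhlhe40, a repressor that also acts in the circadian clock, differed by 0.92 (95% confidence interval 0.76 to 1.08), with a mean of 9.27 ± 0.22 in sham and 10.19 ± 0.17 in HF-HI and no overlap. Its difference was 0.93 with the GC trend removed. Per1, another clock repressor with activity-dependent transcription, differed by 0.73 without overlap, and by 0.48 with the trend removed. HF-HI lay above sham without overlap for 2 of the 7, beside 8.71% of all genes. Klf10 rose by 0.30 and Ier5 by 0.22, and the Ier5 call was lost with the GC trend removed (0.12, limma adjusted p = 0.111). Id2, an inhibitor of basic helix-loop-helix factors, rose by 0.14. Klf6 was the 1 that was lower, by -0.16, and with the GC trend removed it did not pass (-0.07, limma adjusted p = 0.176).

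Among 16 effectors, 4 were higher (25%, beside 32.6% of all genes), 4 lower (25%, beside 33.6%) and 8 did not pass. Both shares were below those of all genes. Vgf, a neuropeptide precursor, rose by 0.73, and by 0.35 with the GC trend removed. Dusp6, a phosphatase that switches off ERK, rose by 0.34. Nptx1, a pentraxin that clusters AMPA receptors, rose by 0.22, but its difference with the GC trend removed was 0.07 (limma adjusted p = 0.256). Rgs2 rose by 0.14, a call kept in 7 of 21 fits that left out a library and lost with medians centred or with depth as a covariate. Rgs2 did pass with the GC trend removed (0.22, limma adjusted p = 0.00403) and with the replicate block (0.15, limma adjusted p = 0.0252). Rgs4, a brake on G protein signaling, was lower by -0.18, as were the granin Scg2 by -0.18, the prohormone convertase Pcsk1 by -0.17 and the survival factor Mcl1 by -0.08, a call kept in 9 of 21 fits that left out a library and lost with the replicate block. With the GC trend removed Rgs4 (-0.12, limma adjusted p = 0.0555) and Pcsk1 (-0.05, limma adjusted p = 0.372) did not pass. No effector had groups without overlap, where 8.71% of all genes had HF-HI above sham and 4.76% below. Arl5b, at 0.00, and Rheb, at 0.02, did not pass. With the GC trend removed Arl5b was called higher (0.13, limma adjusted p = 0.00386), as was Spred1 (0.09, limma adjusted p = 0.0413), at -0.03 as deposited.

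**Figure D2:**
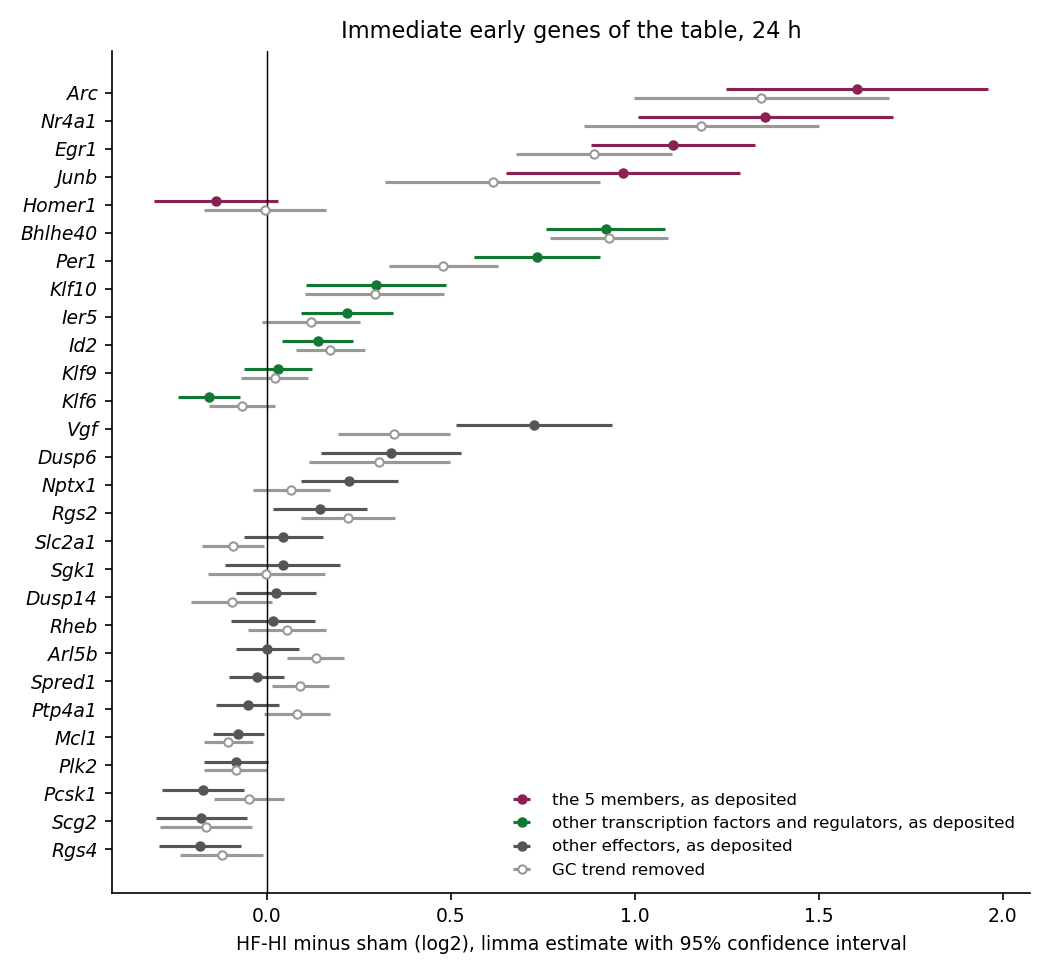
Log2 difference, HF-HI minus sham (horizontal axis), of the 5 members and of 23 other immediate early genes, with 95% confidence intervals from limma, as deposited (filled points) and with each library's GC trend removed (open points). Arc, Nr4a1, Egr1 and Junb lie between 0.97 and 1.60 as deposited, Bhlhe40, Per1 and Vgf between 0.73 and 0.92, and the rest at 0.34 or less.

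Factors and kinases that act upstream of the class were called in both directions. Of 19 measured, 9 were higher (47.4%, beside 32.6% of all genes), 4 lower (21.1%, beside 33.6%) and 6 did not pass, with a median difference of 0.11. With the GC trend removed, 9 were higher and 4 lower, where 29.2% and 31% of all genes were. These were not all the same genes. Usf2 went from higher (0.18, limma adjusted p = 2.77e-04) to lower (-0.10, limma adjusted p = 0.0206). Mapk3, at -0.02 as deposited, was lower only then (-0.25, limma adjusted p = 3.50e-04). Mef2c and Ddx5 were called higher in place of Usf2 and Rps6ka2. Crtc1, a calcium-regulated coactivator of CREB, rose by 0.57, and Mef2d, a factor that binds activity-dependent enhancers, by 0.55. Crebbp, the CREB-binding acetyltransferase, rose by 0.42 and Mef2a by 0.38, both without overlap of the groups, as did 8.71% of all genes. Creb1 itself was lower by -0.17, and its difference with the GC trend removed was -0.04 (limma adjusted p = 0.385). Map2k1, the kinase that activates ERK, was lower by -0.29, and the CREB kinases Rps6ka5 and Rps6ka3 by -0.25 and -0.15, the latter a call lost with the GC trend removed (-0.04, limma adjusted p = 0.222). Of 5 dimer partners and corepressors of the member factors, 3 were higher and 1 lower, beside 32.6% and 33.6% of all genes. Mafg, which pairs with AP-1 family proteins, rose by 0.30, and by 0.14 with the GC trend removed. Nab1, a corepressor that binds Egr1, was lower by -0.16.

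Most of the measured binding partners of Homer1 and Arc were higher. Of 27, 18 were higher (66.7%, beside 32.6% of all genes), 4 lower (14.8%, beside 33.6%) and 5 did not pass, with a median difference of 0.34. With the GC trend removed, 15 were higher and 4 lower, beside 29.2% and 31% of all genes, and the median was 0.15. The postsynaptic scaffolds Dlgap4, Shank3, Dlgap3 and Shank2 rose by 1.16, 1.07, 0.64 and 0.60. With the GC trend removed their differences were 0.92, 0.72, 0.25 and 0.42, all still past the threshold. Grm5, the metabotropic receptor whose tail Homer1 binds, was lower by -0.39 without overlap, from 12.19 ± 0.07 to 11.80 ± 0.13. Trpc1, a cation channel gated through Homer1, was also lower without overlap, by -0.38, as were 4.76% of all genes. Itpr1, the calcium release receptor that Homer1 couples to Grm5, was lower by -0.13. Ap2m1, the clathrin adaptor subunit that Arc binds, was lower by -0.27. Homer2, the paralog of Homer1, did not pass, at 0.07, but it did with the GC trend removed (0.10, limma adjusted p = 0.0353).

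Mice of a group differed more in these genes than in most. In sham, the SD between libraries was 0.53 for Arc, 0.54 for Nr4a1, 0.33 for Egr1, 0.50 for Junb and 0.24 for Homer1, against a median of 0.111 over all genes. Arc exceeded 99.4% of genes in sham and 98.8% in HF-HI by this measure. All 5 SDs were larger in sham than in HF-HI, as for 68.1% of all genes. The mean absolute deviation from the group median fell from 0.437 to 0.208 for Nr4a1, but no member passed a permutation test of the difference in spread (two-sided, adjusted p between 0.131 and 0.1995). Without HF-HI 10, Homer1 alone passed, with adjusted p = 0.0305.

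The spread was partly shared between members. Among sham mice all 10 pairs had a positive r, with a median of 0.52, and 1 pair passed after adjustment over the 20 relations of both groups. This was Arc with Nr4a1 (r = 0.82, permutation p = 0.0046, adjusted p = 0.046; Spearman's rho = 0.83, p = 0.00435, adjusted p = 0.0369). Sham 4 and sham 6 were the lowest for both genes. Leaving out the 2 libraries farthest from the median of Arc, sham 4 and sham 1, gave r = 0.70 over 8 libraries and no pair passed. The call was also lost without any 1 of 8 libraries, all but sham 3 and sham 8, with r between 0.72 and 0.82. Without sham 8, which combined the highest Nr4a1 of its group with a mid-range Arc, r was 0.96. The pairs Arc with Junb (r = 0.69, rho = 0.84) and Nr4a1 with Junb (r = 0.75, rho = 0.82) passed by rank alone, with adjusted permutation p = 0.0369 for both.

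Among HF-HI mice 8 of 10 pairs had a positive r, with a median of 0.39. Arc with Homer1 was the 1 that passed (r = 0.78, permutation p = 0.00115, adjusted p = 0.023), and by rank it did not (rho = 0.72, p = 0.0162, adjusted p = 0.0745). HF-HI 10 was the highest library for Arc, Nr4a1, Egr1 and Homer1, and HF-HI 3 the lowest for Arc and Homer1. Leaving out the 2 libraries farthest from the median of Arc gave r = 0.57 over 9 libraries, and the call rests on them. It was also lost without HF-HI 10 (r = 0.72) or HF-HI 3 (r = 0.74). Arc with Nr4a1 had r = 0.73 (adjusted permutation p = 0.0594). Homer1, whose mean did not pass between groups, thus had a positive r with Arc between HF-HI mice, as in the plot of Arc against 4 genes. Its call depends on HF-HI 10 and HF-HI 3. With the GC trend removed it did not pass (r = 0.66, adjusted permutation p = 0.0923). In sham, Arc with Homer1 had r = 0.49 as deposited and 0.69 with the trend removed.

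**Figure D3:**
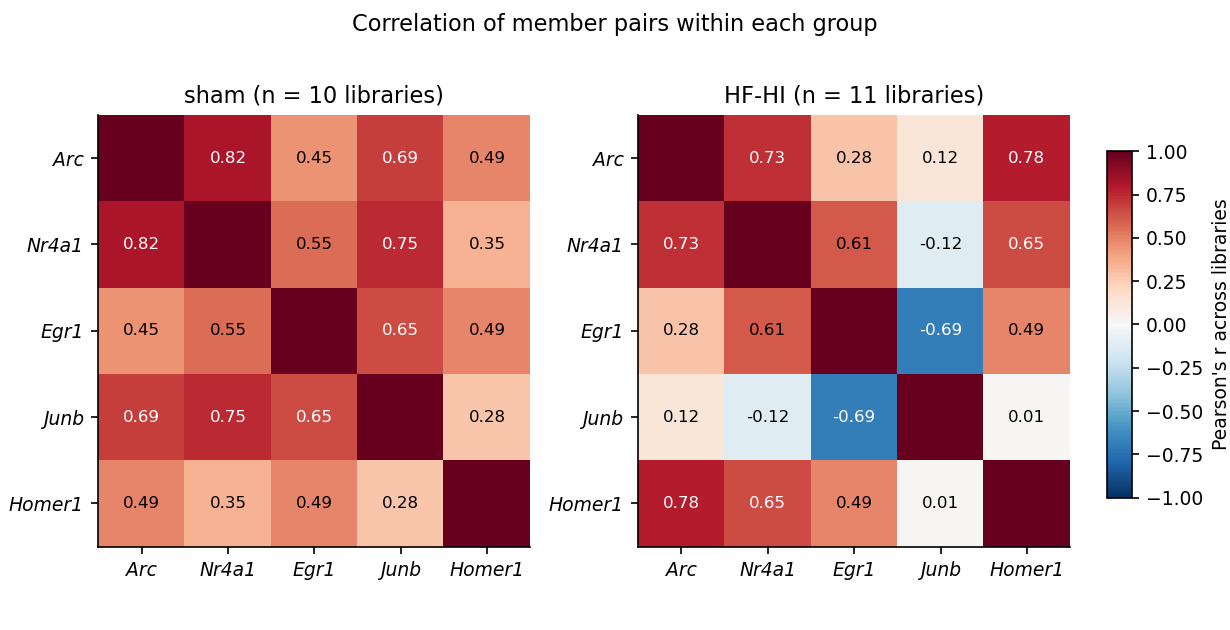
Pearson's r across libraries for each pair of members within sham (left, 10 libraries) and within HF-HI (right, 11 libraries), coloured from -1 (blue) to 1 (red). All sham pairs are positive, from 0.28 to 0.82, and in HF-HI the Junb pairs run from -0.69 to 0.12.

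Junb was the member whose pairs looked least alike between the groups. Egr1 with Junb had r = 0.65 in sham and -0.69 in HF-HI, a difference with permutation p = 0.0351 and adjusted p = 0.292 over 10 pairs. The HF-HI value leaned on HF-HI 9, which had the lowest Egr1 (10.05) and the highest Junb (9.34) of its group, and was -0.41 without it. Nr4a1 with Junb went from 0.75 to -0.12 (permutation p = 0.0584, adjusted p = 0.292), and was 0.39 in HF-HI without HF-HI 9. No pair passed a test of the difference between groups.

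Library measures were set beside the members within each group. Of 20 relations of a member with relative depth or with the GC slope within a group, 3 had an unadjusted permutation p under 0.05 and 0 passed after adjustment. The closest was Nr4a1 with depth in HF-HI (r = 0.81, rho = 0.72, permutation p = 0.00348, adjusted p = 0.0696), where r was 0.74 without the 2 libraries farthest in depth. With depth regressed out within groups, 6 sham and 3 HF-HI pairs passed in place of 1 and 1, and with the GC trend removed 0 and 0 passed. The 3 HF-HI pairs were Arc with Homer1 (r = 0.80), Nr4a1 with Homer1 (r = 0.77) and Egr1 with Junb. The last was negative (r = -0.69, adjusted permutation p = 0.0449). Arc with Nr4a1 in HF-HI then had r = 0.55. The part of depth and GC content in the shared spread was not tested.

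Genes that follow Arc between mice were ranked by the lower of their r in sham and their r in HF-HI, so that a gene had to follow in both groups and the difference between groups was not used. This is a description over 10 and 11 libraries that share depth and GC slope. Klf10 came first of 5543 genes, with r = 0.84 in sham and 0.89 in HF-HI, and it was again first with the GC trend removed, at 0.85. It encodes a zinc finger factor known as an early gene of TGF-beta signaling. Its sham values ran from 8.12 through 8.39 to 8.83 and its HF-HI values from 8.46 through 8.76 to 9.08. After it came Nadk, the kinase that makes NADP (0.75), Prkcz, an atypical protein kinase C (0.74), Nr4a1 (0.73) and Kctd10, an adaptor of a cullin ubiquitin ligase (0.71). Leaving out any single library kept these 5 among the 50 nearest.

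**Figure D4:**
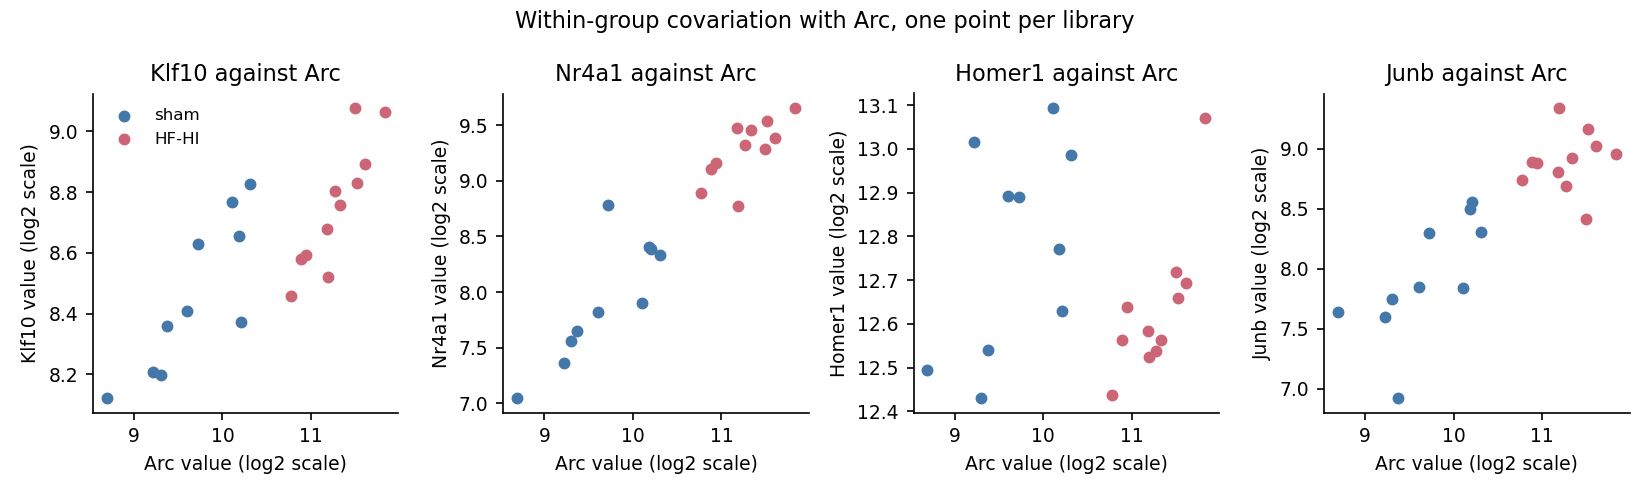
Values of Klf10, Nr4a1, Homer1 and Junb (vertical axes, log2 scale) against Arc (horizontal axis, log2 scale) in 10 sham and 11 HF-HI libraries, 1 point per library. Klf10 and Nr4a1 follow Arc in both groups, and Junb follows it in sham (r = 0.69). Homer1 has r = 0.78 with Arc in HF-HI and 0.49 in sham, a difference that did not pass its test. With the GC trend removed these were 0.66 in HF-HI and 0.69 in sham.

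Of the other 27 immediate early genes, 6 were among the 50 genes nearest Arc, 22.2% of them against 0.902% of all genes. Besides Klf10 and Nr4a1 they were the phosphatases Dusp14 (0.70) and Dusp6 (0.69), the kinase Plk2, which weakens synapses after sustained activity (0.70), and Ier5 (0.60). Dusp14 and Plk2 followed Arc between mice but did not pass between groups, at 0.02 and -0.08. The Dusp14 likeness leans on sham 4, the lowest sham library for both Arc (8.69) and Dusp14 (8.68, next 8.96). Its likeness without sham 4 is not given here, so the count of 6 may rest on that library. Homer1, with a likeness of 0.49, ranked 81 as deposited and 12 with the GC trend removed. Vgf rose by 0.73 between groups but had a likeness of -0.24, and Bhlhe40, with the largest difference of the 23 other immediate early genes, ranked 267. Id2 ranked 5530 of 5543, with r = -0.82 in sham and -0.39 in HF-HI, so it was lower where Arc was higher within groups while its mean was higher in HF-HI. Of the 50 genes nearest Arc, 8 were higher and 29 lower in HF-HI, where 32.6% and 33.6% of all genes were.

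**Figure D5:**
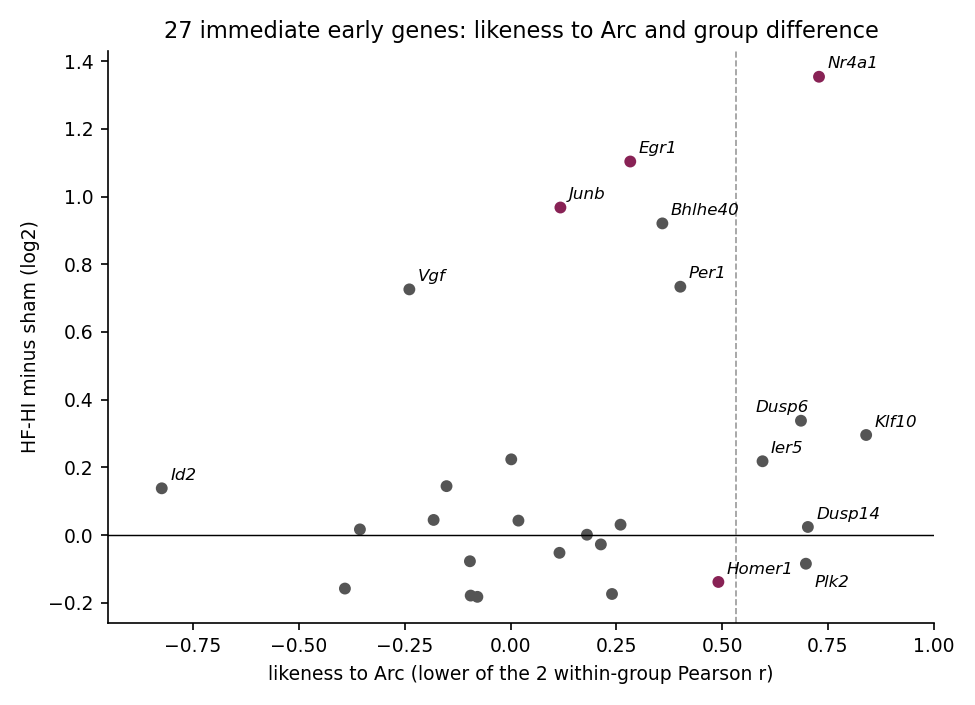
Likeness to Arc, the lower of the r within sham and within HF-HI (horizontal axis), against the log2 difference HF-HI minus sham (vertical axis) for 27 immediate early genes, members in purple, with a dashed line at 0.534, the likeness of the last of the 50 nearest genes. Klf10, Nr4a1, Dusp14, Plk2, Dusp6 and Ier5 lie to the right of the line, with differences from -0.08 to 1.35.

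Nr4a1 and Egr1 had largely other neighbours. The 5 genes nearest Nr4a1 were Kdm5c, a histone demethylase (0.80), Tmed8 (0.80), Eipr1, a trafficking protein (0.79), the metal transporter Slc39a14 (0.77) and the synaptic vesicle protein Svop (0.77). Klf10 (0.74), Arc (0.73) and Plk2 (0.70) were among its 50 nearest, 3 of 27 immediate early genes, as was the microglial receptor gene Csf1r (0.71). Nr4a1 had 32 genes with a likeness above 0.7, while Arc had 6 and Egr1 1. Nearest Egr1 were the potassium channel Kcna6 (0.75), the sorting nexin Snx30 (0.65), the adhesion protein Igsf9b (0.65), the zinc finger gene Zfp799 (0.63) and the kinesin Stard9 (0.62), and 1 of 27 immediate early genes, Nr4a1 (0.55), was within 50. With the GC trend removed Zfp799 ranked 388, and the other 4 ranked between 4 and 40. Arc shared 13 of its 50 nearest genes with Nr4a1, Klf10 and Plk2 among them, and 1 with Egr1. Igsf9b rose by 0.55 between groups, and Zfp799 was lower by -0.26. With depth regressed out within groups, 3 of the 5 genes nearest Egr1 and 2 of the 5 nearest Nr4a1 stayed among the 50 nearest.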

How the data were processed

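The authors made libraries from total RNA of cortex with a stranded kit after ribosomal RNA removal, sequenced 6 samples per pool as 100 bp paired-end reads, aligned to mm10 with STAR, counted per transcript with eXpress and normalized with DESeq2. The STAR and eXpress versions, the annotation and the pool of each library are not given in the sources used here. The authors deposited the variance-stabilized result, on a log2 scale, as 1 value per Ensembl gene and library. Counts were not analysed here, so total depth is unknown. The relative depth of each library came from the spacing of its values, once returned from the log2 scale, in the range 500 to 600. Precision is set by the spread between libraries. Replicates are separately titled samples, taken here as 1 mouse each, and p-values measure the spread between these samples only.

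Libraries were grouped by title. Symbols, positions and GC content came from GENCODE for GRCm38, the same assembly as mm10; 5541 genes had a symbol and 5539 a GC content. The comparison of groups was fitted over all genes with limma 3.58.1 (R 4.3.3; eBayes with a trend). Correlations, their differences and spreads used permutation tests with 100000 resamples, run in Python 3.11.15 (scipy 1.17.1, numpy 2.4.6, matplotlib 3.10.9, pandas 2.3.3). GC trends were removed by lowess of span 0.3 on the deviations of each library from the mean of all. The fits were tested on simulated data. 1 marker gene is not reported here and was left out of its list. The members and lists were chosen with earlier results of these data known. Named genes are the members, the 4 with the largest absolute difference in each list, the 5 nearest Arc, Egr1 and Nr4a1 by likeness, and genes of the lists among the 50 nearest. Other genes that complete a small count or that are singled out (Klf6, Id2, Rgs2, Scg2, Pcsk1, Mcl1, Arl5b, Rheb, Creb1, Map2k1, Rps6ka5, Rps6ka3, Grm5, Trpc1, Itpr1, Ap2m1, Homer2, Clock, Arntl) were chosen after their values were seen. So were Usf2, Rps6ka2, Mapk3, Mef2c, Ddx5 and Spred1. Alternatives were an adjusted p under 0.1, a minimum difference of 0.25, eBayes without a trend, median centring, quantile normalization, leaving out the lowest quartile of genes, GC trend removal, depth, the replicate number as a block, and each library left out.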

Additional observations from a re-analysis of the deposited data

Results flagged for a closer look

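Among 71 named genes tested for a library that stands apart in sham, 4 had a gap between the extreme library and its neighbour that was large for 10 libraries, as a share of the whole range. Chance gives about 1 in 20 such gaps. The gap was 0.566 of the range for Dusp14, in sham 4, at 8.68 below the next value of 8.96. Sham 4 was also the lowest library for Arc, and it had the highest Gfap, at 9.26 above 8.85, a gap of 0.480. Rgs4 had a gap of 0.530, in sham 5, at 12.7 below 13.0. Zfp799 had a gap of 0.498, in sham 8, at 9.23 above 9.17. None of the 5 members had such a library in sham, and groups of 11 were not tested.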

How the results depend on the processing

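Arc, Nr4a1, Egr1 and Junb kept their direction and their call under every alternative that gave them a value (Nr4a1 and Junb lie in the lowest quartile of mean values and had none without it). The lowest difference was that of Junb, 0.61 with the GC trend removed, with or without the block, and it was 0.86 to 1.04 with a library left out. Homer1 passed with medians centred (-0.191) or quantile normalization (-0.183), ran from -0.182 to -0.103 with a library left out, where the 1 call came without HF-HI 10, and was 0.00804 with GC trend removal and the block together. At a difference of at least 0.25, 987 genes were higher and 446 lower, and 5 and 0 of the other immediate early genes; 2 of the latter were lower with the GC trend removed, with or without the block. Pairs past the threshold, 1 in each group, were 0 in sham and 0 in HF-HI with the GC trend removed, 6 and 3 with depth regressed out (Egr1 with Junb in HF-HI negative), 3 and 0 by Spearman's rho, and 0 and 0 without the 2 farthest libraries. With a library left out they were 0 to 1 in sham (0 without sham 1, 2, 4, 5, 6, 7 or 9) and 0 to 2 in HF-HI (0 without HF-HI 3 or 10, 2 without HF-HI 9). Some small r changed sign: Egr1 with Homer1 in sham to -0.217 and Arc with Junb in HF-HI to -0.029 without the 2 farthest libraries, Junb with Homer1 in HF-HI to -0.160 with the GC trend removed (-0.129 to 0.187 with a library left out), and Nr4a1 with Junb in HF-HI to 0.047 with depth, 0.173 by rho and 0.374 without the 2 farthest (-0.272 to 0.393). Of the 5 nearest genes, 3 for Egr1 and 2 for Nr4a1 stayed among the 50 nearest with depth regressed out, and 2 to 5 for Egr1 with a library left out (2 without sham 9 or HF-HI 9). The count of members with a changed spread was 0 to 1 (1 without HF-HI 10). The cause of these changes was not tested. The replicate numbers were checked for pairing: 4 of 10 same-numbered pairs correlated above 0.1 (from -0.310 to 0.364). No source used here says that the numbers pair samples, so no pairing was assumed. Such correlations cannot tell whether a number marks a shared batch. With the replicate block, Arc differed by 1.64, Nr4a1 by 1.37, Egr1 by 1.11, Junb by 0.97 and Homer1 by -0.13, no call of a member changed, and 1739 genes were higher and 1758 lower.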

Other observations

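Among clock genes, some of which are also induced by activity, both directions were seen. Of 14 measured, 7 were higher and 2 lower in HF-HI, beside 32.6% and 33.6% of all genes. Besides Bhlhe40 and Per1, the nuclear receptor Nr1d1, which represses Arntl, rose by 0.73 and Dbp, an output factor of the clock, by 0.57. The core activators Clock and Arntl were lower, by -0.18 and -0.15. Removing the GC trend left all of these past the threshold, Dbp at 0.34 and Clock at -0.07.

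Genes that respond to glucocorticoids showed no single direction. Of 7 measured, 3 were higher and 1 lower, beside 32.6% and 33.6% of all genes. Zbtb16 rose by 0.55 and Nr3c2, the mineralocorticoid receptor, by 0.12, with Per1 the third. The Nr3c2 call was lost with the GC trend removed (0.09, limma adjusted p = 0.0505), which left 2 higher, with medians centred and with the replicate block. Tsc22d3, a steroid-induced leucine zipper gene, was lower by -0.26.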
